A study of Mus musculus with 29 samples.

Results

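The p53 target genes described here are 10 genes that the tumour suppressor p53 is known to switch on in many cell types: Cdkn1a, Btg2, Mdm2, Ccng1, Bax, Phlda3, Trp53inp1, Rps27l, Sesn1 and Zmat3. They were taken by symbol, 10 of 54532 rows in the table of a cell-type experiment and the same 10 of 55421 rows in the table of a Smad experiment. The rule itself uses no measured value, but the members were chosen with earlier results of these data known. The RNA came from CD4 T cells of C57BL/6 mouse spleens, was extracted with TRIzol, and was sequenced with the QuantSeq 3' FWD kit, which reads a tag at the 3' end of each polyadenylated RNA. In the cell-type experiment 3 libraries were made from each of naive cells, Th0 cells grown for 5 days in IL-2 (15 ng/ml), and Treg cells grown for 5 days in IL-2 (15 ng/ml) with human TGF-beta (10 ng/ml). The Smad experiment used Treg cultures in 4 groups of 2 libraries: a control that received no guide RNA, sgSmad2 with a guide to Smad2, sgSmad3 with a guide to Smad3, and sgSmad2/3 with both. All of its groups, the control included, grew for 5 days in IL-2 (15 ng/ml) with TGF-beta (10 ng/ml). The labels give no source of Cas9 and name no group with a non-targeting guide.

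p53 is a transcription factor held at a low level by the ubiquitin ligase Mdm2 and stabilised when DNA is damaged or a cell is otherwise stressed. It then binds DNA elements made of a pair of half-sites near its target genes, whose products halt the cell cycle, promote repair or lead to apoptosis, and it switches on Mdm2 itself, which closes a feedback loop. Many of these targets also answer to other factors: Cdkn1a is known to respond to T cell activation and, in epithelial cells, to TGF-beta through Smad proteins, and Btg2 belongs to a set of quiescence genes of resting cells.

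The bases before the transcription start of 3 members were searched for the half-site that p53 reads. A pair was found before the more upstream of 2 Cdkn1a starts, and no half-site before the other. Ccng1 had a single half-site and Btg2 none. Cdkn1a is shown because it rose most after culture and Btg2 because it fell most. Ccng1 is shown because its level went with the Smad2 guide. The sequences are from RefSeq on GRCm38.p6, the 250 bases before an annotated start, 5′ to 3′ along the gene's strand. They are chr17:29090729-29090978 (+) for the more upstream of 2 Cdkn1a starts, chr11:40755287-40755536 (-) for Ccng1 and chr1:134079156-134079405 (-) for Btg2. Capitals mark matches to the p53 half-site consensus on either strand, and the letters CAGAC or their reverse complement GTCTG, a core that Smad proteins can bind.
Cdkn1a: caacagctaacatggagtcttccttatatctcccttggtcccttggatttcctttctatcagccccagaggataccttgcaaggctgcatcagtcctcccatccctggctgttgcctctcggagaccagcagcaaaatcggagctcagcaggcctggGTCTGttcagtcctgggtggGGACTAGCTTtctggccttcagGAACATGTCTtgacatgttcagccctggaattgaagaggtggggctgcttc
Ccng1: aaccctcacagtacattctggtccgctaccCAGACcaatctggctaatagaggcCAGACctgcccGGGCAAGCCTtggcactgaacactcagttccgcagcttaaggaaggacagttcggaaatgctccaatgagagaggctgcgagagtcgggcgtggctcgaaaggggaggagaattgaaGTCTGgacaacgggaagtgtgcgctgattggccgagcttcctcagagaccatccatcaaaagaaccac
Btg2: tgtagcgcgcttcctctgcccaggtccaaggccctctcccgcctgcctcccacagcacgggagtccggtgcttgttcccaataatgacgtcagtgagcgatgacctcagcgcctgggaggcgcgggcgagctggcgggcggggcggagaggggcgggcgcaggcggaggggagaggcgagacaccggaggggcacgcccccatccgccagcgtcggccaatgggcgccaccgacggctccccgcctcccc

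The Cdkn1a window held a pair of half-sites, GGACTAGCTT and GAACATGTCT, that start 73 and 51 bases before the start, and GTCTG at 93 bases before it. A match had to meet the consensus at every base. The letters tgacatgttc, directly after GAACATGTCT, depart from it at their first base and were therefore not marked. Which of these letters p53 reads was not tested. Of 32851 RefSeq windows of 300 bases (250 before and 50 after a start), 8.36% held a half-site and 0.0731% (24 windows) held a pair with a spacer of at most 13 bases, the Cdkn1a window among them. Ccng1 had 1 half-site, GGGCAAGCCT, 185 bases before its start, and 3 CAGAC cores, a core that 49.6% of windows hold at least once. No half-site and no CAGAC core was found in the Btg2 window. Windows were found for 8 members, and Zmat3 and Trp53inp1 had none in the table used. Mdm2 and Bax each had 1 half-site, 186 and 201 bases before their starts. Rps27l had 2 half-sites, not a pair, in a window and none in another. Sesn1 had 1 in a window and none in another, and Phlda3 had none. The other Cdkn1a window, not printed here, held no half-site. Such matches describe letters and do not show that p53 or a Smad protein binds there.

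Levels are in CPM, the reads of a gene per 1000000 counted reads of the library, given for replicates 1, 2 and 3. Libraries held 797612 to 1551478 reads in the cell-type experiment and 1294583 to 1602297 in the Smad experiment, so a gene with no read could still have a level of 3 reads, up to 3.76 CPM in the shallowest library. Changes are differences of log2(CPM + 1) from limma with standard errors (SE), and a gene was called at an adjusted p under 0.05 over all genes tested, 14165 and 18347 in the 2 tables. All 10 members passed the filter on low values in both. Whether replicates were separate mice or cultures is not stated in the labels, so p-values measure the spread between libraries. Markers of CD4 T cells were present in all 17 libraries (Cd3e, Cd3d, Cd4, Lck and Trac summed to 1906 to 3350 CPM). Of 4 Treg markers, Foxp3 and Itgae rose in Treg against Th0, and Il2ra and Ikzf2 were not called. Naive libraries held RNA of these markers too. Mean Foxp3 was 87.8 CPM in naive, 10.4 in Th0 and 179 in Treg, and mean Ikzf2 was 282, 63.5 and 102. Mean Il2ra was 75.4, 1313 and 1332, and mean Itgae 4.46, 0.408 and 28.3. Naive libraries also carried RNA of other blood cells: summed levels of 5 red cell genes were 496 to 1172 CPM in naive libraries and at most 5.55 in Th0 and Treg, those of 7 myeloid genes 33.9 to 96.6 against at most 5.30, those of 7 B cell genes 203 to 390 against 98.5 to 113, and those of 6 CD8 and NK genes 39.7 to 70.2 against at most 26.9. The myeloid genes Csf1r, Lyz2, S100a8 and S100a9 were at 0 in all Th0 and Treg libraries. Gm42418, a gene at the ribosomal RNA locus, took 10.3 to 11.4% of reads in naive libraries, 6.59 to 8.78% in Th0 and Treg and 4.81 to 7.61% in the Smad experiment. The part of these markers and of this gene in the differences from naive cells was not tested.

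After culture some p53 targets were higher and others lower. Against naive cells, 9 of 10 members changed in Th0, 5 higher and 4 lower (41.9% of all genes tested were called in this comparison, 24.3% higher and 17.6% lower), and 6 of 10 changed in Treg, 3 higher and 3 lower (39.9% of all genes, 23.3% higher and 16.5% lower). The median change of the members was 0.39 in Th0 and 0.13 in Treg, beside 0.084 and 0.081 for all genes tested. Both comparisons use the same naive libraries. Between Treg and Th0, which differ by TGF-beta, 1 of 10 members changed, Trp53inp1, and it was higher in Treg (5.44% of all genes were called, 2.99% higher and 2.45% lower).

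**Figure D1:**
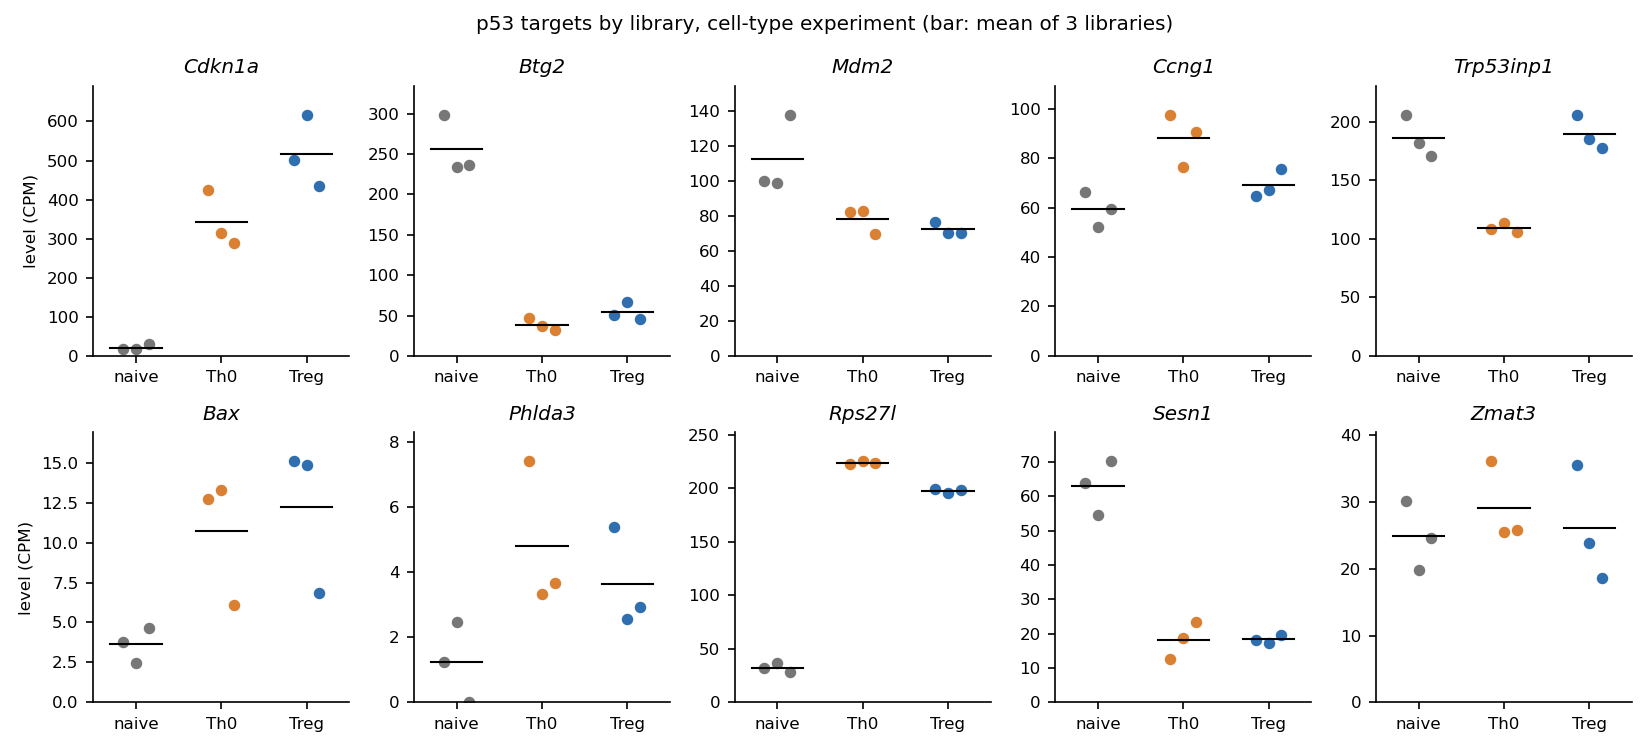
Level of each of the 10 genes in CPM (linear axis from 0, its own scale in each panel) in the 3 naive, 3 Th0 and 3 Treg libraries, 1 point per library in the order of replicates 1 to 3, with a bar at the mean. Cdkn1a and Rps27l are far lower in naive libraries, Btg2 and Sesn1 far higher, and Trp53inp1 is lower in Th0 (105 to 113 CPM) than in the other 6 libraries (171 to 206 CPM).

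Among the genes that halt proliferation, Cdkn1a and Btg2 went in opposite directions. Cdkn1a encodes p21, the inhibitor of cyclin-dependent kinases that carries much of the p53 arrest. It read 17.6, 17.3 and 29.2 CPM in naive libraries, 425, 314 and 289 in Th0, and 502, 617 and 435 in Treg. The 3 groups did not overlap, and every cultured library was far above every naive one. Cdkn1a rose 23.6-fold in Treg against naive (limma log2 change 4.56, SE 0.18, adjusted p = 2.4e-13) and 15.6-fold in Th0 (3.96, SE 0.18, adjusted p = 1.7e-12). Its difference of 0.60 between Treg and Th0 (SE 0.18, 95% confidence interval 0.22 to 0.98) missed the threshold in limma (adjusted p = 0.063). Over 14 alternatives the difference was 0.47 to 0.76 with limma adjusted p up to 0.34, and it passed in 5. Among these was edgeR's quasi-likelihood test on the whole reads (0.62, adjusted p = 2.5e-06), which called 7.53% of all genes, beside 5.44% in limma. Another was limma without Th0 replicate 1, the highest Th0 library (0.76, adjusted p = 0.033).

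Btg2, an antiproliferative member of the BTG/TOB family, read 298, 234 and 236 CPM in naive libraries, 46.6, 36.6 and 31.8 in Th0, and 50.6, 66.4 and 46.0 in Treg. Naive libraries were far above all others, while Th0 and Treg overlapped at their edges. Btg2 fell 6.57-fold in Th0 (limma log2 change -2.72, SE 0.17, adjusted p = 1.7e-10) and 4.67-fold in Treg (-2.22, SE 0.17, adjusted p = 3.3e-09). The mean was higher in Treg than in Th0 by 0.49 (SE 0.17, 95% confidence interval 0.13 to 0.85), which did not pass (adjusted p = 0.12).

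The feedback genes changed less. Mdm2, the ligase that p53 induces and that marks p53 for destruction, read 100.3, 99.1 and 138 CPM in naive, 82.6, 83.2 and 69.8 in Th0 and 76.5, 70.3 and 70.5 in Treg libraries. All 6 cultured libraries lay below all naive ones, and Th0 overlapped Treg. Mdm2 fell 1.53-fold in Treg (limma log2 change -0.61, SE 0.15, adjusted p = 0.0026) and 1.41-fold in Th0 (-0.50, SE 0.15, adjusted p = 0.011). The Th0 call was lost without naive replicate 3 (adjusted p = 0.085) or Th0 replicate 3 (adjusted p = 0.052), and in limma with no trend of the spread on level (adjusted p = 0.056).

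Ccng1 encodes cyclin G1, which works with a phosphatase to keep Mdm2 active. Its levels were 66.4, 52.0 and 59.6 CPM in naive, 97.5, 76.6 and 90.6 in Th0 and 64.6, 67.0 and 75.4 in Treg libraries. Th0 was above both other groups in every library, and naive and Treg overlapped. Ccng1 rose 1.48-fold in Th0 against naive (log2 change 0.56, SE 0.15, limma adjusted p = 0.0053), a call that quantile scaling removed (0.38, adjusted p = 0.057). In Treg it differed by -0.35 from Th0 (SE 0.15, adjusted p = 0.26) and by 0.22 from naive (SE 0.15, adjusted p = 0.28), and neither passed.

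Trp53inp1 set the Th0 cultures apart. Its product is a stress-induced protein that promotes p53 phosphorylation, autophagy and cell death. It read 206, 182 and 171 CPM in naive libraries, 108, 113 and 105 in Th0, and 206, 185 and 177 in Treg. Th0 lay below all other libraries, while naive and Treg covered the same range. Against Th0, Treg was 1.73-fold higher (0.79 on the log2 scale, SE 0.11, limma adjusted p = 9.2e-05). Against naive, Th0 was 1.70-fold lower (-0.76, SE 0.11, limma adjusted p = 1.5e-05). Treg differed from naive by 0.026 (95% confidence interval -0.21 to 0.26). Its call between Treg and Th0 held in all 14 alternatives compared, with changes of 0.73 to 0.84 and adjusted p of 1.9e-07 (edgeR) to 0.025 (limma). Leaving out a naive library was not among these alternatives.

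The other genes of cell death and survival were low or rose with culture. Rps27l encodes a ribosomal protein paralog that p53 induces. How reads that match both it and its paralog Rps27 were counted is not given in the sources used here, so its values carry that uncertainty. It read 32.6, 37.2 and 28.1 CPM in naive, 222, 225 and 224 in Th0 and 199, 196 and 199 in Treg libraries. It rose 6.74-fold in Th0 (limma log2 change 2.75, SE 0.12, adjusted p = 1.2e-12) and 5.96-fold in Treg (2.57, SE 0.12, adjusted p = 3.2e-12). Treg was lower than Th0 in every library, but the difference of -0.18 (SE 0.12) did not pass (adjusted p = 0.56).

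Bax, the pore-forming protein of mitochondrial apoptosis, was low throughout: 3.76, 2.48 and 4.68 CPM in naive, 12.7, 13.3 and 6.12 in Th0 and 15.1, 14.8 and 6.86 in Treg libraries. These rest on 9, 29 and 44 reads per group, and all cultured libraries were above all naive ones. Bax rose 2.77-fold in Treg (limma log2 change 1.47, SE 0.44, adjusted p = 0.012) and 2.46-fold in Th0 (1.30, SE 0.44, adjusted p = 0.025). The Treg call was lost without Treg replicate 1 (adjusted p = 0.060) or 2 (0.064). The Th0 call was lost without naive replicate 2 (adjusted p = 0.070), Th0 replicate 1 (0.085) or Th0 replicate 2 (0.092).

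Phlda3, an inhibitor of the survival kinase Akt, was at the limit of detection, with 1, 2 and 0 reads in naive, 7, 3 and 3 in Th0 and 5, 4 and 3 in Treg libraries. Summed over libraries and set against their depth, the reads gave a Th0 level 4.01 times the naive level (exact 95% interval 1.10 to 21.9) and a Treg level 2.81 times as high (0.759 to 15.5), both for counting error only. In limma the Th0 difference was called (log2 change 1.48, SE 0.55, adjusted p = 0.036) and the Treg difference was not (1.17, SE 0.55, adjusted p = 0.097). The Th0 call was lost without naive replicate 3 (0.99, adjusted p = 0.18) or Th0 replicate 1 (adjusted p = 0.14), with a pseudocount of 0.1 (2.71, adjusted p = 0.070), with no filter (adjusted p = 0.067) and with edgeR (1.79, adjusted p = 0.096). The Treg difference was called without naive replicate 2 (1.58, adjusted p = 0.041).

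Sesn1 encodes sestrin 1, a stress protein that restrains mTORC1. It read 63.9, 54.5 and 70.1 CPM in naive, 12.7, 18.9 and 23.3 in Th0 and 18.3, 17.4 and 19.6 in Treg libraries. Naive libraries stood above all others, and Treg lay within the Th0 range. Sesn1 fell 3.39-fold in Th0 (limma log2 change -1.76, SE 0.24, adjusted p = 7.0e-06) and 3.27-fold in Treg (-1.71, SE 0.24, adjusted p = 1.0e-05). Treg and Th0 differed by 0.049 (95% confidence interval -0.45 to 0.55).

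Zmat3, an RNA-binding zinc finger protein, was the member with no call in any comparison. It read 30.1, 19.8 and 24.5 CPM in naive, 36.0, 25.5 and 25.7 in Th0 and 35.5, 23.8 and 18.6 in Treg libraries, and all 3 groups overlapped. Its intervals still allow changes: -0.34 to 0.78 for Th0 against naive, -0.52 to 0.59 for Treg against naive and -0.74 to 0.37 for Treg against Th0. The annotated gene overlaps 4930429B21Rik, and the strand setting of the counting is not given in the sources used here.

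**Figure D2:**
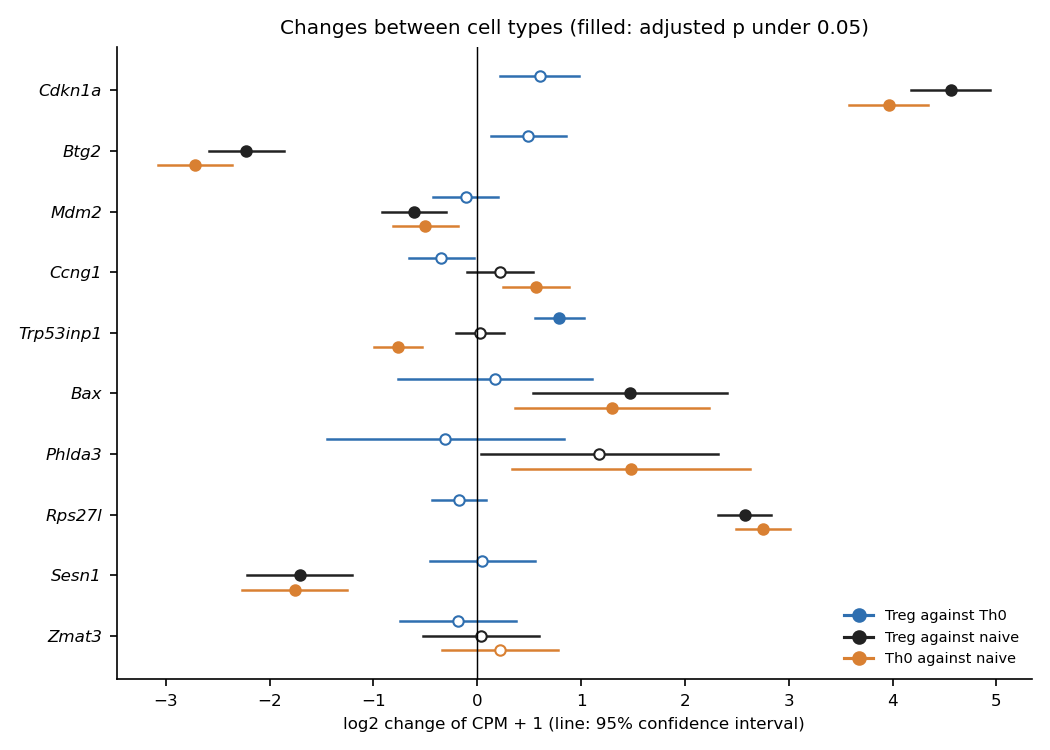
Difference in log2(CPM + 1) between cell types for each gene (point) with its 95% confidence interval (line), filled where the limma adjusted p was under 0.05. Treg against Th0 has 1 filled point, Trp53inp1 at 0.79, while against naive cells Cdkn1a lies at 4.56 (Treg) and 3.96 (Th0) and Btg2 at -2.22 and -2.72.

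Without a test, 4 of 10 members had Treg and Th0 libraries that did not overlap: Cdkn1a and Trp53inp1 higher in Treg, Ccng1 and Rps27l lower. Over all genes tested 21.2% did so, 10% higher and 11.2% lower.

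The RNA of p53 itself was not called in any comparison. Trp53 read 48.4 ± 3.7 CPM (SD, n = 3) in naive, 56.8 ± 7.3 in Th0 and 63.8 ± 9.4 in Treg libraries, and Mdm4, its other inhibitor, 276 ± 28, 236 ± 14 and 241 ± 30. Neither passed in the 3 comparisons (limma adjusted p = 0.076 to 0.97). RNA levels say nothing of p53 protein. Of 17 regulators tested, these included, 7 rose and 2 fell against naive cells in Treg, and likewise 7 and 2 in Th0, where 39.9% and 41.9% of all genes were called. Between Treg and Th0 it was 1 of 17, near the 5.44% of all genes. Chek1, a checkpoint kinase, rose from 2.42 ± 1.14 CPM in naive to 37.8 ± 9.5 in Th0 and 33.5 ± 0.7 in Treg (log2 changes 3.53 and 3.39). Chek2, the kinase that acts on p53 after DNA breaks, rose from 3.31 ± 3.65 to 19.5 ± 2.5 and 19.1 ± 4.0 (2.56 and 2.52). Cdkn2a, whose Arf product blocks Mdm2, had no read in any naive library and rose to 16.5 ± 9.0 CPM in Th0 and 6.08 ± 1.54 in Treg. Sirt1, a deacetylase that acts on p53, fell from 85.0 ± 29.5 CPM in naive to 38.3 ± 6.7 in Treg (-1.08, limma adjusted p = 8.4e-04). The regulator called between Treg and Th0 was Pml, which forms nuclear bodies that recruit p53: it was lower in Treg, at 100.3 ± 9.6 CPM beside 179 ± 11 (-0.83 on the log2 scale, SE 0.15, limma adjusted p = 0.0019), a call lost with no trend (adjusted p = 0.077).

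Other known p53 targets were called in both directions against naive cells. Of 49 tested from a list of 54, 17 rose and 12 fell in Treg against naive, 16 rose and 14 fell in Th0 against naive, and 1 rose and 1 fell in Treg against Th0. Over all genes tested 39.9%, 41.9% and 5.44% were called in these comparisons, and the count between Treg and Th0 is near that background. Of the 11 apoptosis genes, 4 rose and 1 fell in Treg, and 4 rose and none fell in Th0, counts near the share of all genes. Siva1, which binds death receptors, went from 11.4 ± 0.3 CPM in naive to 59.8 ± 3.1 in Th0 and 45.8 ± 4.4 in Treg (log2 changes 2.29 and 1.92). Pidd1, a scaffold for caspase-2, rose by 2.05 and 1.70, and Ei24 by 1.25 and 1.15. Fas, the death receptor, fell in Treg by 1.13 on the log2 scale, a call lost without Treg replicate 2 (limma adjusted p = 0.051) or 3 (0.071). Aen, an apoptosis-enhancing nuclease, rose in Th0 (1.73), a call lost without naive replicate 2 (adjusted p = 0.22) or Th0 replicate 2 (0.11) or 3 (0.10), with a pseudocount of 0.1 (0.10), with quantile scaling (0.10) and with no trend (0.12). Ei24 in Treg was lost without naive replicate 2 (0.64, adjusted p = 0.086), with quantile scaling (0.066) and with no trend (0.062).

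Of the 18 arrest and signalling targets, 6 rose and 8 fell in Treg and 5 rose and 7 fell in Th0. Over all genes tested 23.3% rose and 16.5% fell in Treg, and 24.3% rose and 17.6% fell in Th0. Those with the largest rises, apart from the cytokine gene Lif, are genes of the mitotic spindle: Ckap2 went from 3.63 ± 1.09 CPM to 75.9 ± 7.2 in Th0 and 76.4 ± 22.1 in Treg, Gtse1 rose by 3.36 in Treg, and Psrc1 rose from 1 read in all naive libraries to 19.6 ± 6.1 and 23.5 ± 3.7 CPM. Lif also had 1 naive read and reached 84.7 ± 25.9 and 97.3 ± 20.3 CPM. Btg1, a paralog of Btg2, fell from 1333 ± 7 CPM in naive to 86.4 ± 8.1 in Th0 (-3.94, limma adjusted p = 3.3e-15), and Treg exceeded Th0 1.53-fold (134 ± 22 CPM, 0.61, adjusted p = 0.0020), a call lost with no trend (adjusted p = 0.11). Of the 20 metabolism and repair targets, 7 rose and 3 fell in Treg and 7 rose and 7 fell in Th0, beside the same shares of all genes. Sesn2, a paralog of Sesn1, rose from 3.61 ± 1.94 CPM to 23.8 ± 6.3 in Th0 and 35.1 ± 9.2 in Treg, the opposite direction to Sesn1. Dcxr, a carbonyl reductase, rose by 2.33 and 2.64. Gls2, a mitochondrial glutaminase, had no naive read and reached 2.93 ± 1.55 and 6.77 ± 2.55 CPM. Ephx1, an epoxide hydrolase, fell from 49.8 ± 9.5 CPM to 4.89 ± 3.54 and 3.16 ± 1.18. Ddb2, a DNA damage sensor, read 18.4 ± 0.9 CPM in Treg and 31.3 ± 4.9 in Th0 (-0.73, limma adjusted p = 0.0497), a call that 10 of 14 alternatives removed, among them leaving out Th0 replicate 1 or 2 or any Treg replicate (adjusted p = 0.088 to 0.18).

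Cell cycle genes that p53 is known to repress through p21 were high where Cdkn1a was high. All 30 of 30 rose against naive cells in both Treg and Th0, with median changes of 4.31 and 4.28. Over all genes tested 23.3% and 24.3% rose. Top2a, the replication topoisomerase, went from 78.5 ± 19.7 CPM in naive to 3326 ± 39 in Th0 and 3445 ± 136 in Treg. Ccna2, Cdk1 and Ube2c, which drive S phase and mitosis, read 2.06 ± 1.5, 7.39 ± 4.5 and 9.04 ± 4.0 CPM in naive and 146 ± 16, 317 ± 30 and 411 ± 10 in Th0. None of the 30 was called between Treg and Th0, where their median change was -0.0054 and 5.44% of all genes were called.

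**Figure D3:**
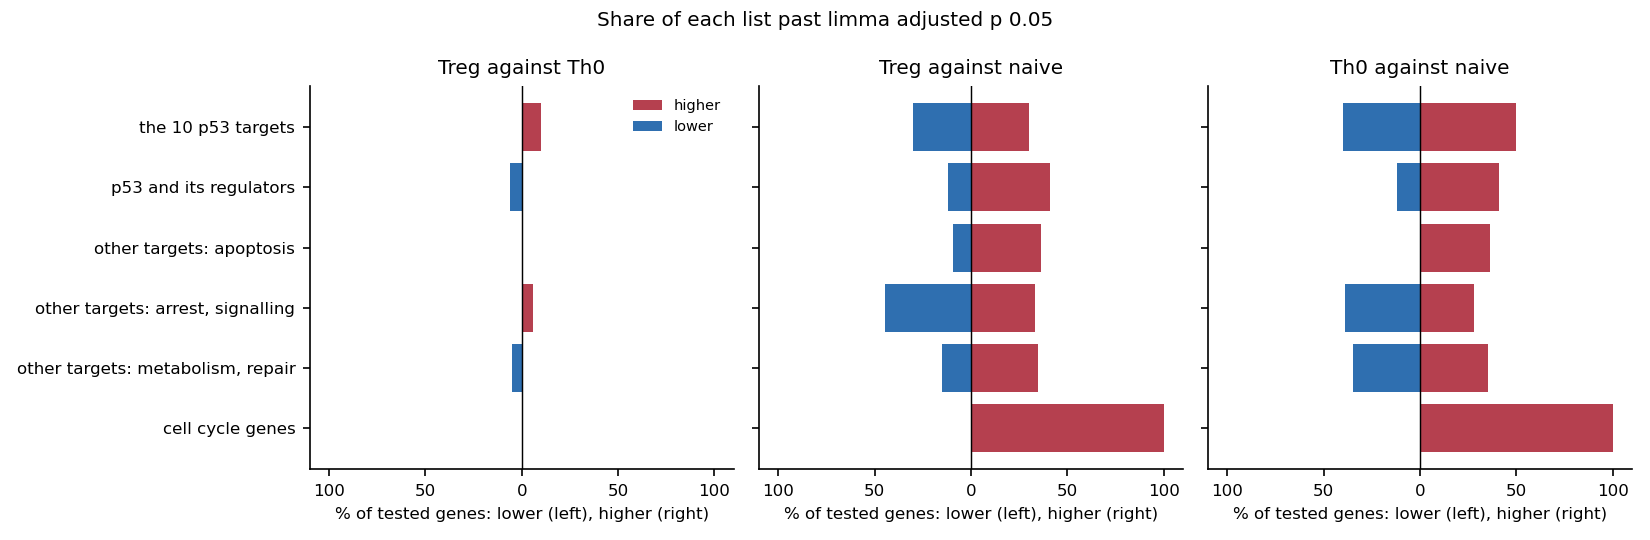
Percentage of the tested genes of each list called higher (to the right of 0) or lower (to the left) by limma in the 3 comparisons of cell types. Of these lists the cell cycle genes had all 30 of 30 members called higher against naive cells, and each p53 list other than the apoptosis targets in Th0 holds genes called in both directions against naive cells. Over all genes tested 23.3% were called higher in Treg and 24.3% in Th0 against naive cells.

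By profile over the 9 libraries, the genes nearest to Cdkn1a of 8476 compared were Lta (root mean square difference 0.22 on the centred log2 scale), Trim16 (0.29) and Ndrg1 (0.29). Lta, which encodes lymphotoxin alpha, read 10.5 ± 4.5, 170 ± 17 and 232 ± 7 CPM in naive, Th0 and Treg libraries. Nearest to Trp53inp1 were Zfp672, Aim2 and Frmd8 (0.11, 0.11 and 0.12). Aim2, a sensor of cytosolic DNA, read 106 ± 14, 55.4 ± 3.6 and 94.2 ± 5.0 CPM.

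In the Smad experiment no member was called in any of the 3 guide comparisons with the control, in their mean, in the difference between sgSmad2/3 and both single-guide effects added up, or in 2 comparisons added after the values were seen, of the 4 libraries with a Smad2 guide, or a Smad3 guide, against the 4 without. The background was the same: 0% of the 18347 genes were called by limma in each of them. At an unadjusted p under 0.05 there were 1006 genes for sgSmad2, 1842 for sgSmad3, 1795 for sgSmad2/3, 1631 for the mean of the guides, 1051 for the departure, 1268 for the Smad2 guide and 2355 for the Smad3 guide, with 2, 2, 3, 3, 0, 2 and 2 members among them. With genes kept only at 5 CPM or more no member was called either. In the same order, 0.00931%, 0.0931%, 0.522%, 0.149%, 0%, 0.102% and 0.931% of 10737 genes then were. Other settings called more genes and again no member: for sgSmad2, sgSmad3 and sgSmad2/3 a pseudocount of 0.1 gave 185, 178 and 178 genes, and no trend gave 175, 158 and 164. The guides that share the control cannot be read as independent of each other.

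The targeted genes themselves were not called. Smad2 read 37 and 29 CPM in control, 12 and 24 in sgSmad2, 25 and 30 in sgSmad3 and 13 and 18 in sgSmad2/3 libraries. All 4 libraries with a Smad2 guide lay below the other 4 (log2 change -0.85, limma adjusted p = 0.50). Smad3 read 30 and 34 in control, 44 and 56 in sgSmad2, 26 and 25 in sgSmad3 and 41 and 37 in sgSmad2/3, so that the double-guide libraries were above the control. A 3' tag need not report a cut elsewhere in a gene, so these levels are a weak check of the guides.

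**Figure D4:**
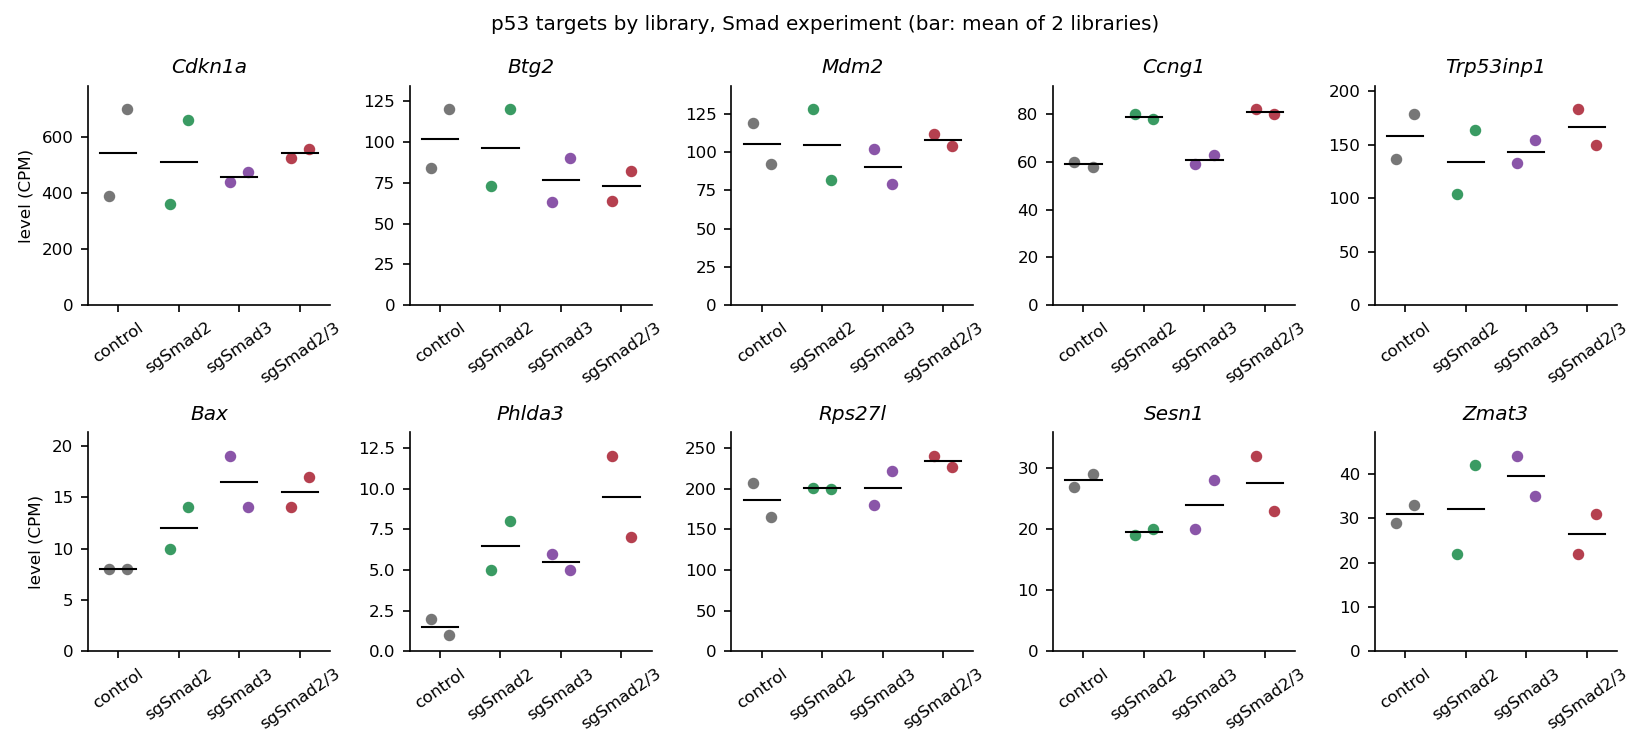
Level of each of the 10 genes in CPM (linear axis from 0, its own scale in each panel) in the 2 control, 2 sgSmad2, 2 sgSmad3 and 2 sgSmad2/3 libraries, 1 point per library with a bar at the mean. Ccng1 forms 2 levels, 58 to 63 CPM without and 78 to 82 CPM with a Smad2 guide, and the 6 guide libraries are above both controls for Bax and Phlda3.

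Ccng1 was the member whose libraries split by the Smad2 guide. It read 60 and 58 CPM in control and 59 and 63 in sgSmad3 libraries, against 80 and 78 in sgSmad2 and 82 and 80 in sgSmad2/3. The 4 libraries with a Smad2 guide did not overlap the 4 without, which held for 1 of 10 members and for 0.703% of all genes in this direction (0.616% in the other). No member split in this way by the Smad3 guide, beside 2.46% of all genes higher and 2.1% lower. The difference was 0.41 (SE 0.061, 95% confidence interval 0.26 to 0.56), and its adjusted p did not pass (limma, 0.28). With the filter at 5 CPM the SE was 0.13 and the adjusted p 0.84. Over 15 alternatives the difference was 0.39 to 0.43 with adjusted p of 0.095 to 0.84. For the Smad3 guide the difference was 0.041 (95% confidence interval -0.11 to 0.19).

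Bax and Phlda3 were higher in all 6 guide libraries than in both controls, as were 3.03% of all genes (2.67% were lower). Bax read 8 and 8 CPM in control, 10 and 14 in sgSmad2, 19 and 14 in sgSmad3 and 14 and 17 in sgSmad2/3 libraries. The mean of the guides was 0.78 above the control (SE 0.21, limma adjusted p = 0.45). Phlda3 read 2 and 1 CPM in control, 5 and 8 in sgSmad2, 6 and 5 in sgSmad3 and 12 and 7 in sgSmad2/3, which is 3 reads and 1 to 2 reads in the controls and 6 to 16 in the others. Its mean difference was 1.68 (SE 0.33, limma adjusted p = 0.32), and neither gene passed. No marker of other blood cells was called in the guide comparisons, but some sums differed between groups. Summed levels of 7 myeloid genes were 3 CPM in both controls, 4 to 8 in sgSmad2, 8 to 53 in sgSmad3 and 18 to 67 in sgSmad2/3. Fcer1g was at 0 only in the controls, Csf1r and S100a8 in both libraries of the control and sgSmad2 groups, and Itgam in all 8 libraries. S100a8 read 19 and 1 CPM in sgSmad3 and 2 and 27 in sgSmad2/3, so its level rests on 1 library in each of these groups. Those of 5 red cell genes were 13 to 19, 24 to 25, 32 to 87 and 70 to 144 CPM, with Alas2 at 0 in all 8 libraries and Hba-a2 in both libraries of the control and sgSmad2 groups. Those of B cell genes were 95 in both controls and 62 to 90 in guide libraries, and those of CD8 and NK genes 13 to 15 and 6 to 15. Their part in these differences was not tested, and in bulk RNA fewer cells of a type and less RNA per cell cannot be told apart.

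Cdkn1a, which rose most with culture, varied widely within the control and sgSmad2 groups and little within the other two. It read 389 and 698 CPM in control, 362 and 660 in sgSmad2, 439 and 474 in sgSmad3 and 526 and 557 in sgSmad2/3 libraries. Replicate 2 was the higher library in each group. The 2 controls differed 1.79-fold and enclosed all other values except the lower sgSmad2 library. The mean of the guides differed from the control by -0.076 (95% confidence interval -0.82 to 0.67), an interval that still allows a change of the size seen between Treg and Th0. With the filter at 5 CPM, added after the data were seen, the interval was -0.52 to 0.37, which does not reach 0.60 in either direction. These intervals and those of the other members take the libraries as unpaired.

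Trp53inp1 varied less within the control and sgSmad2 groups than Cdkn1a did: 137 and 179 CPM in control, 104 and 164 in sgSmad2, 133 and 154 in sgSmad3 and 183 and 150 in sgSmad2/3 libraries. The mean of the guides differed by -0.10 (95% confidence interval -0.63 to 0.42), which does not reach 0.79 in either direction. For sgSmad2 alone the difference was -0.26 (-0.90 to 0.38), an interval that does include a fall of 0.79. The intervals for sgSmad3 (-0.77 to 0.51) and sgSmad2/3 (-0.56 to 0.72) do not. With the filter at 5 CPM the sgSmad2 interval was -0.72 to 0.20 and did not include a fall of 0.79 either. Btg2 read 84 and 120 in control, 73 and 120 in sgSmad2, 63 and 90 in sgSmad3 and 64 and 82 in sgSmad2/3, a mean difference of -0.33 (-0.99 to 0.34). Each group overlapped another for both genes.

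For the remaining members no difference was called. Mdm2 ranged over 79 to 128 CPM across the 8 libraries (mean difference -0.068, 95% confidence interval -0.59 to 0.45) and Rps27l over 165 to 240 (0.19, -0.12 to 0.49). Sesn1 read 27 and 29 in control, 19 and 20 in sgSmad2, 20 and 28 in sgSmad3 and 32 and 23 in sgSmad2/3, so that its lowest pair was sgSmad2 (-0.50 against control, SE 0.23, limma adjusted p = 0.93). Zmat3 ranged over 22 to 44 CPM (0.025, -0.66 to 0.71). Trp53 read 54 and 47 CPM in control, 56 and 64 in sgSmad2, 87 and 38 in sgSmad3 and 54 and 59 in sgSmad2/3. Of the 52 other p53 targets tested here, 18 regulators and 30 cell cycle genes, none was called in any guide comparison by limma.

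**Figure D5:**
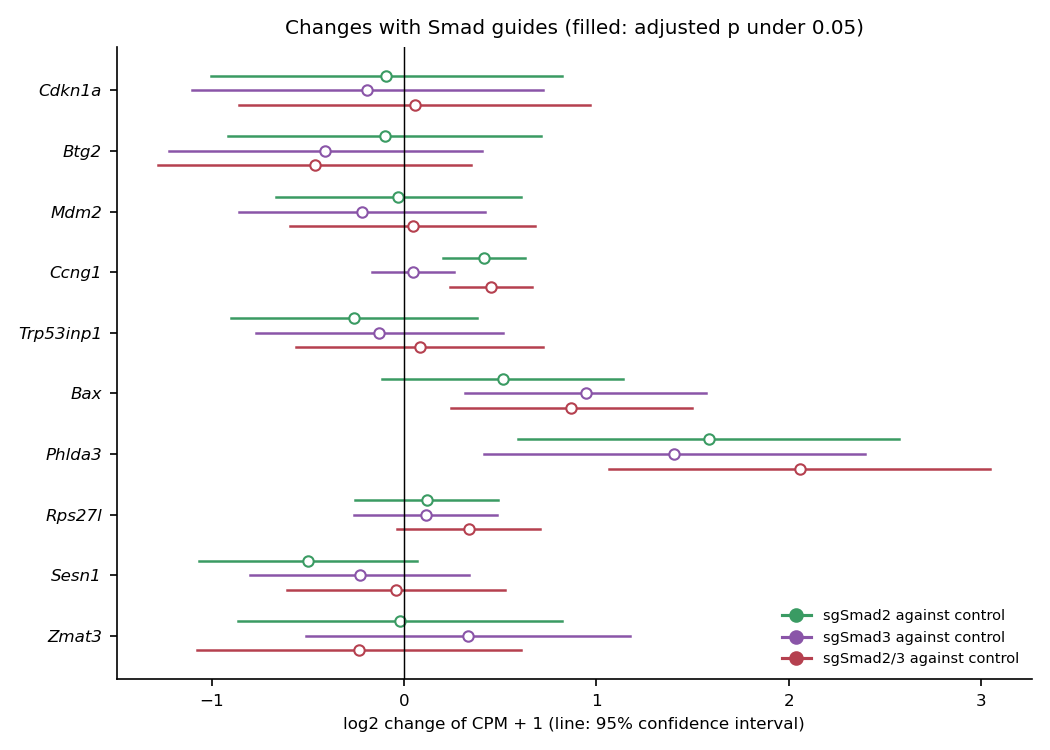
Difference in log2(CPM + 1) from the control for each guide group and gene (point) with its 95% confidence interval (line). No point is filled, as no limma adjusted p was under 0.05. The intervals of Ccng1 lie above 0 for sgSmad2 and sgSmad2/3, those of Bax for sgSmad3 and sgSmad2/3, and those of Phlda3 for all 3 guide groups.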

How the data were processed

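The 10 members and the 12 gene lists were chosen with earlier results of these data known. Tools listed in the submitters' processing notes, without roles, are Subread 2.0.1, STAR 2.7.9a, deepTools and Bowtie2, with the build mm10. For the annotation version and strand, nothing is given in the sources used here. The deposited cell-type values are CPM: divided by what 1 read is worth, 100% came out whole (tolerance 0.01). The deposited Smad values are a score, CPM rounded to whole numbers, whose last unnamed line gives the worth of 1 read. Both tables had been taken for TPM when the tests were planned.

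Genes at 1 CPM or more in at least 3 (cell-type) or 2 (Smad) libraries were fitted with limma 3.58.1 in R 4.3.3 on log2(CPM + 1) with trended eBayes, the groups of each table sharing a fit, with Benjamini-Hochberg adjustment over all genes tested. This scale understates changes of genes with few reads. Alternatives were other scalings, filters and pseudocounts, no trend, each library left out, a replicate block, and edgeR 4.0.16 on the recovered reads. Simulated data gave every gene the same fixed spread, narrower than that of Cdkn1a in the control, and placed changes only in genes at 10 CPM or more. The shares recovered therefore do not describe genes that vary more or lie lower. For Treg against Th0 the fit recovered 72% of 2-fold and 100% of 4-fold changes with 4 false calls. For sgSmad2 against control it recovered 21% and 83% with 141 false calls, and with a filter at 5 CPM, added after the data were seen, 77% and 100% with 4. The 95% intervals from limma rest on the spread between libraries. Exact intervals on reads, and floors, cover counting error only, since no molecular identifiers are described.

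Named beside the members were Trp53, Mdm4, Smad2 and Smad3, at most 4 called genes of largest change per list of regulators and other targets and per comparison, at most 3 cell cycle genes per comparison, and 3 genes of nearest profile at 10 CPM or more for Cdkn1a and Trp53inp1. Promoter windows were searched for the p53 half-site and CAGAC on both strands. RNA libraries from an Acsbg1 experiment (4) and ATAC libraries (8) were not analysed here.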

Additional observations from a re-analysis of the deposited data

How the results depend on the processing

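The number of p53 targets called between Treg and Th0 was 1, and 2 without a filter, with TMM scaling, with the filter at 5 CPM and with edgeR, where Cdkn1a was added. Leaving out each Th0 or Treg library in turn gave 1 to 2, with 2 without Th0 replicate 1. Over all genes 770 (5.44%) were called there, and 453 with no trend and 503 without Treg replicate 2. Where 2 members were called, the count over all genes was 793 without a filter, 782 with TMM scaling and 591 without Th0 replicate 1. The filter at 5 CPM gave 838 (7.98% of 10505) and edgeR 1066 (7.53%). For sgSmad2, sgSmad3, sgSmad2/3 and the mean of the guides 0 genes were called, and 185, 178, 178 and 93 with a pseudocount of 0.1 and 175, 158, 164 and 84 with no trend. Over all genes, replicate numbers did not pair libraries in the cell-type experiment (correlations of same-numbered deviations of -0.0029 to 0.041 over genes), nor in the Smad experiment except control and sgSmad2 (0.21, others at most 0.037). Some members did follow the replicate number in every Smad group: Cdkn1a and Btg2 were higher in replicate 2, and Mdm2 in replicate 1. The other members kept no such order. How many of all genes keep such an order was not counted. With the replicate block, 1, 6 and 9 members were called in Treg against Th0, Treg against naive and Th0 against naive, and 0 in each Smad comparison. Over all genes the block gave 759, 5630 and 5897 of 14165 in the same order, and 0 in each Smad comparison. Quantile scaling moved the median of all genes by -0.13 in Treg and -0.12 in Th0 against naive. Some differences without a call changed sign, and the cause was not tested. With single libraries left out, the Treg against Th0 differences ranged from -0.15 to 0.51 for Bax (below 0 without Th0 replicate 3 or Treg replicate 1), -0.18 to 0.23 for Sesn1 (below 0 without Th0 replicate 1) and -0.43 to 0.020 for Zmat3 (above 0 without Treg replicate 3). The Treg against naive differences ranged from -0.035 to 0.099 for Trp53inp1 (below 0 without naive replicate 3 or Treg replicate 1) and -0.21 to 0.24 for Zmat3 (below 0 without naive replicate 2 or Treg replicate 1). For these genes quantile scaling gave -0.043 and -0.17, TMM -0.060 and -0.048, and edgeR -0.063 and -0.043. Quantile scaling gave -0.0065 for Ccng1 in sgSmad3. The mean of the guides ranged from -0.50 to 0.34 for Cdkn1a and -0.29 to 0.089 for Trp53inp1 (both above 0 without sgSmad2 replicate 1 or control replicate 2), from -0.25 to 0.12 for Mdm2 (above 0 without control replicate 1 or sgSmad2 replicate 2), and from -0.13 to 0.18 for Zmat3 (below 0 without control replicate 1, sgSmad3 replicate 1, sgSmad2 replicate 2 or sgSmad2/3 replicate 2). Zmat3 was -0.0034 there with quantile scaling and -0.0069 with TMM. Over the single-gene values, 1228 kept their direction and side of the threshold, 37 lost a call, 6 gained one and 27 changed sign.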
